A study of Mus musculus with 6 samples.

Results

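The genes of the cytoplasmic ribosomal proteins were taken as all protein-coding genes of GENCODE mouse release M21 whose symbol is Rpl, Rplp or Rps followed by digits and an optional letter. This gave 81 genes, 31 of the small (40S) subunit and 50 of the large (60S) subunit, of 54146 genes in the count tables. The symbol decided membership, and no measured value was used. RNA was measured in 3 groups of 2 libraries: KO clone 1 and KO clone 2, in which the Ki-67 gene Mki67 was knocked out on both alleles, and wild-type (WT) cells. All 6 libraries are from 4T1, an established mammary carcinoma line of BALB/c mouse origin, and no treatment, time or age separates the groups. Each KO clone is a single line, so effects of Ki-67 loss cannot be told apart from differences between lines that the clones carry for other reasons. Whether replicate libraries were grown as separate cultures is not in the labels. The p-values thus cover the spread among these 6 libraries, part or all of which may be technical.

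Each ribosome carries a single copy of nearly every ribosomal protein, on a scaffold of ribosomal RNA. The proteins are made in the cytoplasm, imported into the nucleolus and built into subunits there, and copies that are not assembled are degraded. Their mRNAs begin with a run of pyrimidines, the 5′ terminal oligopyrimidine (TOP) motif, through which LARP1 and the kinase complex mTORC1 control their translation and stability as a group. Growing and cancer cells express the family at high levels. When subunit assembly fails, Rpl5 and Rpl11 bind, with 5S rRNA, the ubiquitin ligase Mdm2 and stabilize p53. The mouse genome also holds many processed pseudogenes of these genes, which share long stretches of sequence with them.

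Gene reads per library were 22597596 and 22658499 in KO clone 1, 17103941 and 22275937 in KO clone 2, and 10428970 and 16852152 in WT. Mki67 itself had 85.7 and 102 CPM (counts scaled to library size) in KO clone 1, 39.9 and 52.7 CPM in KO clone 2, and 736 and 647 CPM in WT. Both clones were thus low in Mki67 RNA, although a count over all exons cannot place the alteration within the gene. Of the epithelial markers all 9 were tested, and they summed to 5944 to 5970 CPM in KO clone 1, 5994 to 6417 CPM in KO clone 2 and 4097 to 4719 CPM in WT. Leukocyte and endothelial marker sums stayed below 0.4 CPM in every library, with Cd3e, Adgre1, Cdh5 and Kdr at 0. Fibroblast markers, mostly Pdgfra, summed to 14.5 to 14.6 CPM in KO clone 1, 14.5 to 14.7 CPM in KO clone 2 and 39.4 to 39.5 CPM in WT, with Col3a1 and Lum at 0. In bulk RNA, fewer cells with a transcript and less of it per cell cannot be told apart. Mitochondrial genes held 11.3% and 13.8% of gene reads in KO clone 1, 8.57% and 6.43% in KO clone 2, and 19.0% and 9.19% in WT, so the WT libraries differed from each other. The part of that difference in the results was not tested. Reads that mapped to several places, 24.7% to 29.3% of each library, were assigned to no gene.

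RefSeq promoter windows on GRCm38.p6 were found for 61 of the 81 genes. The windows below run from 60 bases before to 20 bases after the RefSeq start, 5′ to 3′ on the gene's strand. They show the start of some genes that were higher in both clones (Rps2, Rps18, Rps10, Rpl12 and Rpl13). Rps15a and Rps24 were lower for the mean of both clones. Rps15a was not called in KO clone 1, and Rps24 was not called in KO clone 2. Capitals mark the longest run like a TOP motif, defined here as C followed by at least 4 further pyrimidines and beginning within 10 bases of the start. Shorter runs that also meet this definition are not marked. Rpl13 holds no such run in its window, and is shown for contrast.
Rps2, chr17:24720003-24720082, + strand: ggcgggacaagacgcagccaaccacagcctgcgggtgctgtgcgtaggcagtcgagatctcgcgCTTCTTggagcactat
Rps18, chr17:33955646-33955725, − strand: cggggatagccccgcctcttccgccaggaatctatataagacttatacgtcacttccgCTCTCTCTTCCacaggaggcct
Rps10, chr17:27635225-27635304, − strand: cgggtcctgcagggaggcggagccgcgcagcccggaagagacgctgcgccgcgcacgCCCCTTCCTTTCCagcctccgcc
Rpl12, chr2:32961652-32961731, + strand: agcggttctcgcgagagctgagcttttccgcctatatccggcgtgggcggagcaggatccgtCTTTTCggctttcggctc
Rpl13, chr8:123102290-123102369, + strand: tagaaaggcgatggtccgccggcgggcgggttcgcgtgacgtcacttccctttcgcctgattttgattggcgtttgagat
Rps15a, chr7:118116128-118116207, − strand: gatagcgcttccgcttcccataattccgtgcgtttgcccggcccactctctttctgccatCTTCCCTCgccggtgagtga
Rps24, chr14:24490618-24490697, + strand: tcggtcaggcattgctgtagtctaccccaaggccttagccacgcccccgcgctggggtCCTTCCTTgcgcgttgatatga

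Such a run stood in 38 of the 61 genes (62.3%), in 8 of the 14 matched genes that were called higher in both clones (57.1%), and in 5765 of 17492 protein-coding genes with a window (33%). The full windows, from 250 bases before to 50 after the start, were read on both strands. There CCGGAAG, the core of many ETS factor sites, stood in 24 of the 61 genes (39.3%) and in 5 of the 14 (35.7%). Of all protein-coding genes with a window, 12.9% held it. AAGATGGC, the core of the YY1 site, stood in 5 of the 61 (8.2%), in 2 of the 14 (14.3%) and in 3.57% of all these genes. Copies of both can overlap, since CCGGAAG ends as AAGATGGC begins, and a match describes the letters of a window and not a bound site. The TOP run was thus present in some genes of either direction, as the lines for Rps10 and Rps15a show. It was also absent in genes of either direction. No such run was found for Rps28 and Rpl10, higher in both clones, or for Rps4x, lower in both clones. Rpl10a and Rpl22 each had a start with such a run and another without. Rps24 has a second RefSeq start, with the window chr14:24490693-24490772, where no such run was found.

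The family as a whole took a like share of the reads in each group. The 81 genes held 1.69% and 1.69% of gene reads in KO clone 1, 1.83% and 1.73% in KO clone 2, and 1.72% and 1.70% in WT. Small subunit genes held 0.637% and 0.639% in KO clone 1, 0.720% and 0.666% in KO clone 2, and 0.680% and 0.706% in WT. Large subunit genes held 1.05% and 1.05% in KO clone 1, 1.11% and 1.06% in KO clone 2, and 1.04% and 0.998% in WT. The share depends on a few very abundant transcripts of other genes. It was also taken without mitochondrial genes and without every gene among the 10 most abundant of any library. The share was then 2.18% and 2.21% in KO clone 1, 2.28% and 2.07% in KO clone 2, and 2.47% and 2.32% in WT. On that basis both libraries of each clone lay below both WT libraries.

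**Figure D1:**
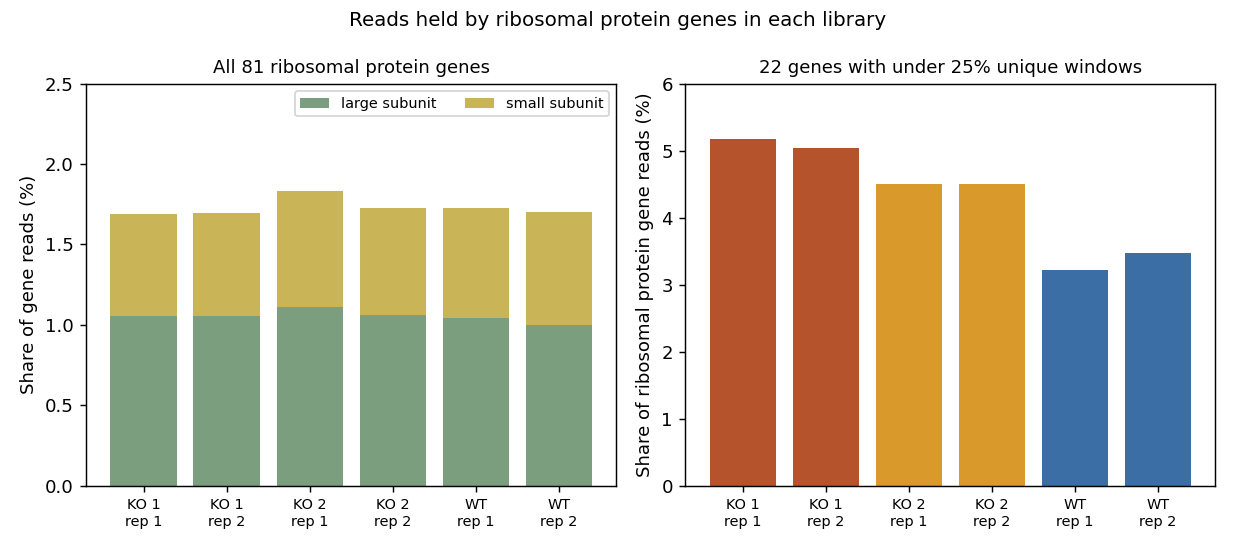
Left, share of gene reads (%) held by the 81 ribosomal protein genes in each library, with large and small subunit genes stacked; right, share of the family's own reads (%) held by the 22 genes with under 25% unique windows. The bars at left lie between 1.69% and 1.83%, while those at right are 5.17% and 5.04% in KO clone 1, 4.51% and 4.50% in KO clone 2 and 3.22% and 3.47% in WT.

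Within this total many single genes differed. Of the 81 genes 77 had enough reads to be tested, and a gene is called changed where its adjusted p was under 0.05 in edgeR's quasi-likelihood test, with adjustment by the Benjamini-Hochberg method over all 13755 genes tested. In KO clone 1 against WT, 22 of the 77 were higher and 2 were lower, which is 31.2% called, against 50.9% called over all genes (24.7% higher, 26.2% lower). The number lower in KO clone 1 was 7 without WT replicate 1, 4 without WT replicate 2 and 1 without KO clone 1 replicate 2. In KO clone 2 against WT, 26 were higher and 6 lower, 41.6% called, against 53.4% over all genes (25.3% higher, 28.2% lower). Without KO clone 2 replicate 1 the number higher in that clone was 11, and without KO clone 2 replicate 2 the number lower was 2. In each clone more of these genes were higher than lower, where the calls over all genes divided about evenly. The comparisons of the clones share the WT libraries and are not independent of each other.

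For the mean of both clones against WT, 26 genes were higher and 6 lower, where 26.6% of all tested genes were higher and 29.4% lower (56% called). The median log2 fold change of the 77 genes was 0.24 in KO clone 1, 0.25 in KO clone 2 and 0.21 for the mean of both, where the medians of all tested genes were −0.014, −0.023 and −0.022. The median in KO clone 2 was 0.16 without KO clone 2 replicate 1. Most changes were small: 11 of the called genes changed by more than 1.5-fold, against 35.3% of all tested genes that were called and past that fold, and 1 gene, Rps2, by more than 2-fold. Of the 32 calls 17 held whichever library was left out, 16 of them higher and 1 lower. By subunit, 8 of 30 small subunit genes were higher and 3 lower (median 0.17), and 18 of 47 large subunit genes were higher and 3 lower (median 0.28).

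Called in both clones were 19 genes, 18 higher and 1 lower, and no gene was called in opposite directions. Over all genes 17.9% were called higher in both clones, 20% lower in both and 0.523% in opposite directions. The 18 were Rps2, Rps10, Rps13, Rps18, Rps21 and Rps28 of the small subunit and Rpl9, Rpl10, Rpl10a, Rpl11, Rpl12, Rpl13, Rpl13a, Rpl29, Rpl30, Rpl32, Rpl35a and Rpl36 of the large subunit. A further 5 genes were called in KO clone 1 and not in KO clone 2, 13 in KO clone 2 and not in KO clone 1, and 40 in neither. Over all tested genes 50.9% were called in KO clone 1 and 53.4% in KO clone 2. The shares of all genes called in a single clone or in neither were not computed, so these counts have no direct background.

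**Figure D2:**
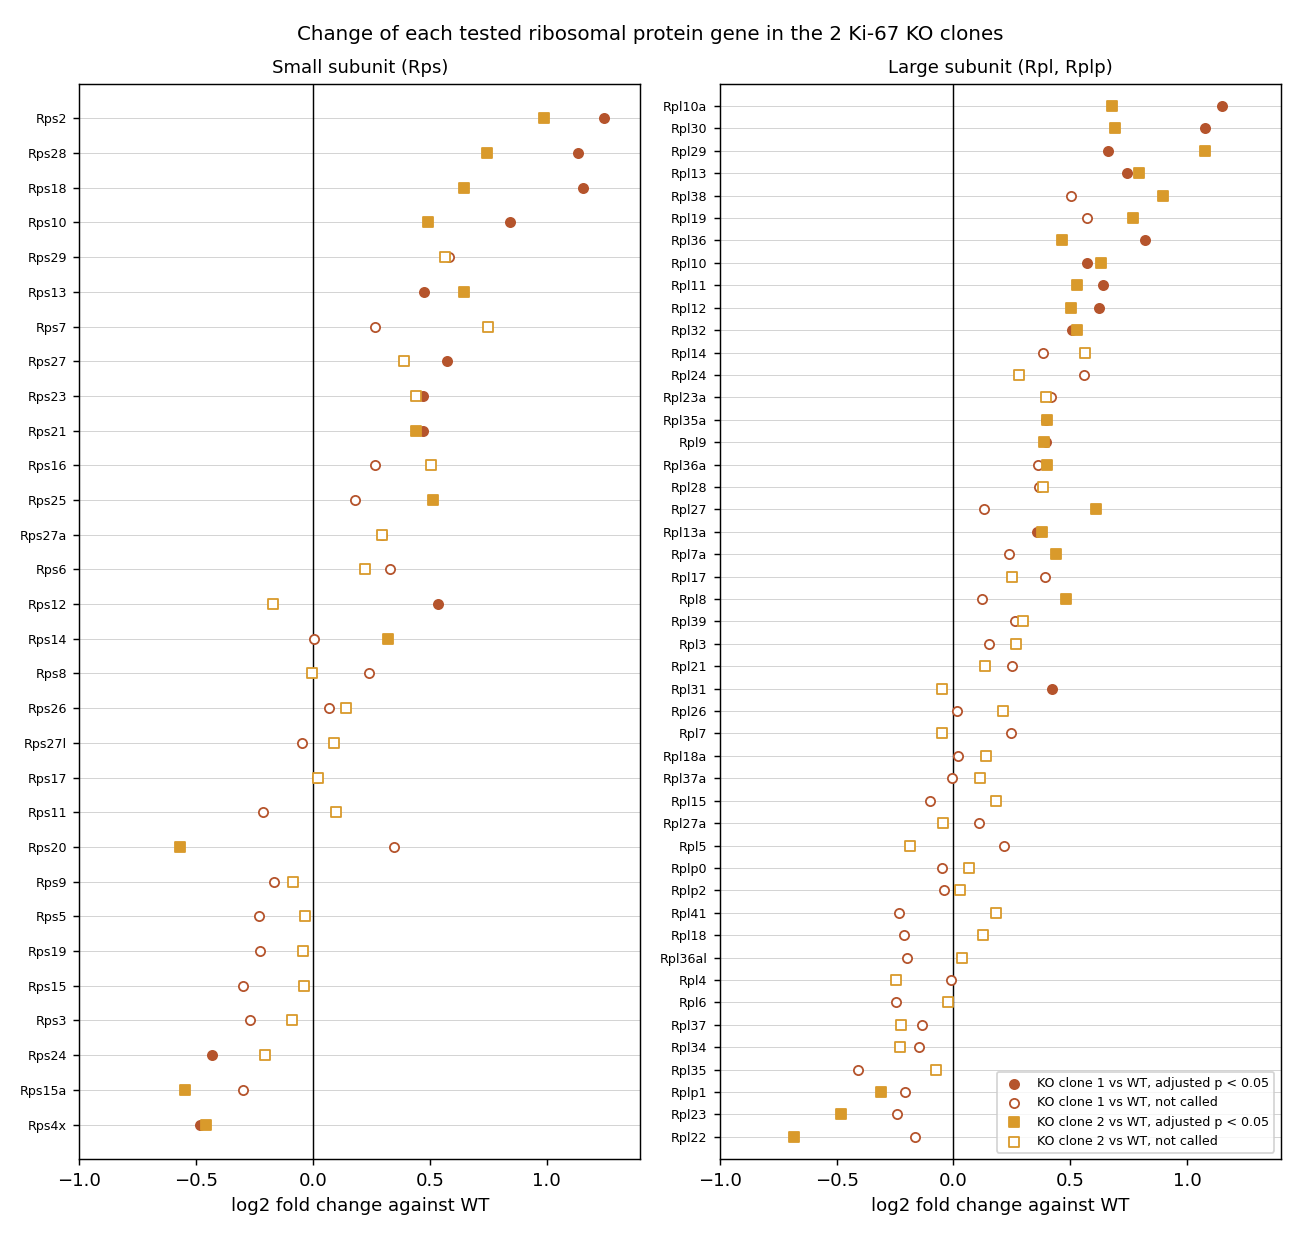
log2 fold change against WT (x axis) of each of the 77 tested ribosomal protein genes, KO clone 1 as circles and KO clone 2 as squares, filled where the adjusted p was under 0.05. Rps2 reaches 1.24 in KO clone 1 and Rpl22 reaches −0.68 in KO clone 2, and most genes lie right of 0.

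Rps2 (ENSMUSG00000044533, chr17:24718116-24721929 on GRCm38, + strand), a small subunit protein beside the channel through which mRNA enters, changed the most. It had 21.4 and 21.9 CPM in KO clone 1, 19.9 and 16.6 CPM in KO clone 2, and 10.1 and 8.44 CPM in WT, so every KO library lay above both WT libraries. Its log2 fold change was 1.24 ± 0.158 in KO clone 1 (SE; adjusted p = 8.18e-06) and 0.99 ± 0.160 in KO clone 2 (adjusted p = 7.85e-05). Rps28, a platform protein near the mRNA exit, had 13.3 and 13.4 CPM in KO clone 1, 11.7 and 8.75 CPM in KO clone 2, and 6.90 and 5.43 CPM in WT. The groups did not overlap, and the log2 fold changes were 1.14 and 0.74, though the KO clone 2 call was lost without WT replicate 2 (adjusted p = 0.0533) and without KO clone 2 replicate 1 (0.0713). Rps18, a protein of the head that contacts the large subunit, had 39.1 and 37.7 CPM in KO clone 1, 28.4 and 25.6 CPM in KO clone 2, and 15.9 and 18.4 CPM in WT. KO clone 1 was highest and WT lowest, with log2 fold changes of 1.15 (adjusted p = 3.01e-06) and 0.65 (adjusted p = 0.000807). Rps10, at the beak of the head, had 204 and 200 CPM in KO clone 1, 184 and 134 CPM in KO clone 2, and 117 and 109 CPM in WT. Its log2 fold change was 0.84 in KO clone 1 and 0.49 in KO clone 2, where the call rested on KO clone 2 replicate 1 (adjusted p = 0.129 without it).

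In the large subunit, Rpl10a (ENSMUSG00000037805, chr17:28328471-28331033, + strand) forms the mobile L1 stalk that guides spent tRNA out of the ribosome. It had 138 and 113 CPM in KO clone 1, 93.4 and 87.3 CPM in KO clone 2, and 48.5 and 63.8 CPM in WT. No library of the groups overlapped, and the log2 fold changes were 1.15 ± 0.143 (adjusted p = 6.48e-06) and 0.68 ± 0.143 (adjusted p = 0.00082). Rpl30, of the large subunit, had 75.3 and 87.5 CPM in KO clone 1, 70.5 and 54.4 CPM in KO clone 2, and 44.5 and 33.2 CPM in WT, again with WT lowest. Its log2 fold changes were 1.08 (adjusted p = 4.87e-05) and 0.69 (adjusted p = 0.00189), and the KO clone 2 call was lost without KO clone 2 replicate 1 (0.0565). Rpl13, of the same subunit, had 178 and 183 CPM in KO clone 1, 198 and 177 CPM in KO clone 2, and 110 and 106 CPM in WT. The clones lay close together and well above WT, with log2 fold changes of 0.74 ± 0.113 (adjusted p = 5.15e-05) and 0.79 ± 0.113 (adjusted p = 2.32e-05). The median gene of its chromosome 8 was also higher, by 0.28 and 0.39, and with chromosome shifts removed Rpl13 was at 0.44 (adjusted p = 0.00428) and 0.39 (adjusted p = 0.00869). Rpl29, a small protein of the large subunit's surface, was measured at low levels, with 3.83 and 3.46 CPM in KO clone 1, 4.71 and 5.00 CPM in KO clone 2, and 2.56 and 2.12 CPM in WT. All KO libraries lay above WT, but the KO clone 1 call (log2 fold change 0.66, adjusted p = 0.0294) was lost when WT replicate 2 (0.189), KO clone 1 replicate 1 (0.172) or KO clone 1 replicate 2 (0.0703) was left out, and with DESeq2 (0.132).

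The decreases were fewer and smaller. Rps4x (ENSMUSG00000031320, chrX:102184941-102189394, − strand), the X-linked form of a small subunit protein and the gene called lower in both clones, had 189 and 198 CPM in KO clone 1, 183 and 211 CPM in KO clone 2, and 218 and 323 CPM in WT. The KO libraries lay below both WT libraries, and WT replicate 2 was far above WT replicate 1. The log2 fold changes were −0.49 (adjusted p = 0.0187) and −0.46 (adjusted p = 0.0239), and without WT replicate 2 they were −0.17 (adjusted p = 0.282) and −0.14 (adjusted p = 0.377). The KO clone 2 call was also lost without KO clone 2 replicate 1 (0.214) or replicate 2 (0.0505), and neither clone passed once chromosome shifts were removed (−0.34, adjusted p = 0.133 in KO clone 1, −0.30, adjusted p = 0.179 in KO clone 2). Rpl22 (ENSMUSG00000028936, chr4:152325742-152334071, + strand), an RNA-binding protein of the large subunit's surface that mouse αβ T cells need for their development, had 401 and 374 CPM in KO clone 1, 241 and 299 CPM in KO clone 2, and 402 and 467 CPM in WT. KO clone 2 stood clearly below WT (log2 fold change −0.68, adjusted p = 0.000319), while KO clone 1 differed from WT by −0.16 (adjusted p = 0.3). Rps15a, of the small subunit, had 273 and 301 CPM in KO clone 1, 246 and 238 CPM in KO clone 2, and 400 and 307 CPM in WT, so that all KO libraries were below WT. It fell by 0.42 on the log2 scale for the mean of both clones (adjusted p = 0.00391), and without WT replicate 1 the value was only −0.21. Rps15a was called lower in KO clone 2 (−0.55, adjusted p = 0.00212) and not called in KO clone 1 (−0.30, adjusted p = 0.0629). Rps24, which is mutated in some patients with Diamond-Blackfan anaemia, had 213 and 202 CPM in KO clone 1, 223 and 261 CPM in KO clone 2, and 249 and 310 CPM in WT, where KO clone 2 overlapped WT. The mean change of −0.32 (adjusted p = 0.0207) was lost without WT replicate 2 (−0.15, adjusted p = 0.295), KO clone 1 replicate 2 (0.0664) or KO clone 2 replicate 1 (0.0864).

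**Figure D3:**
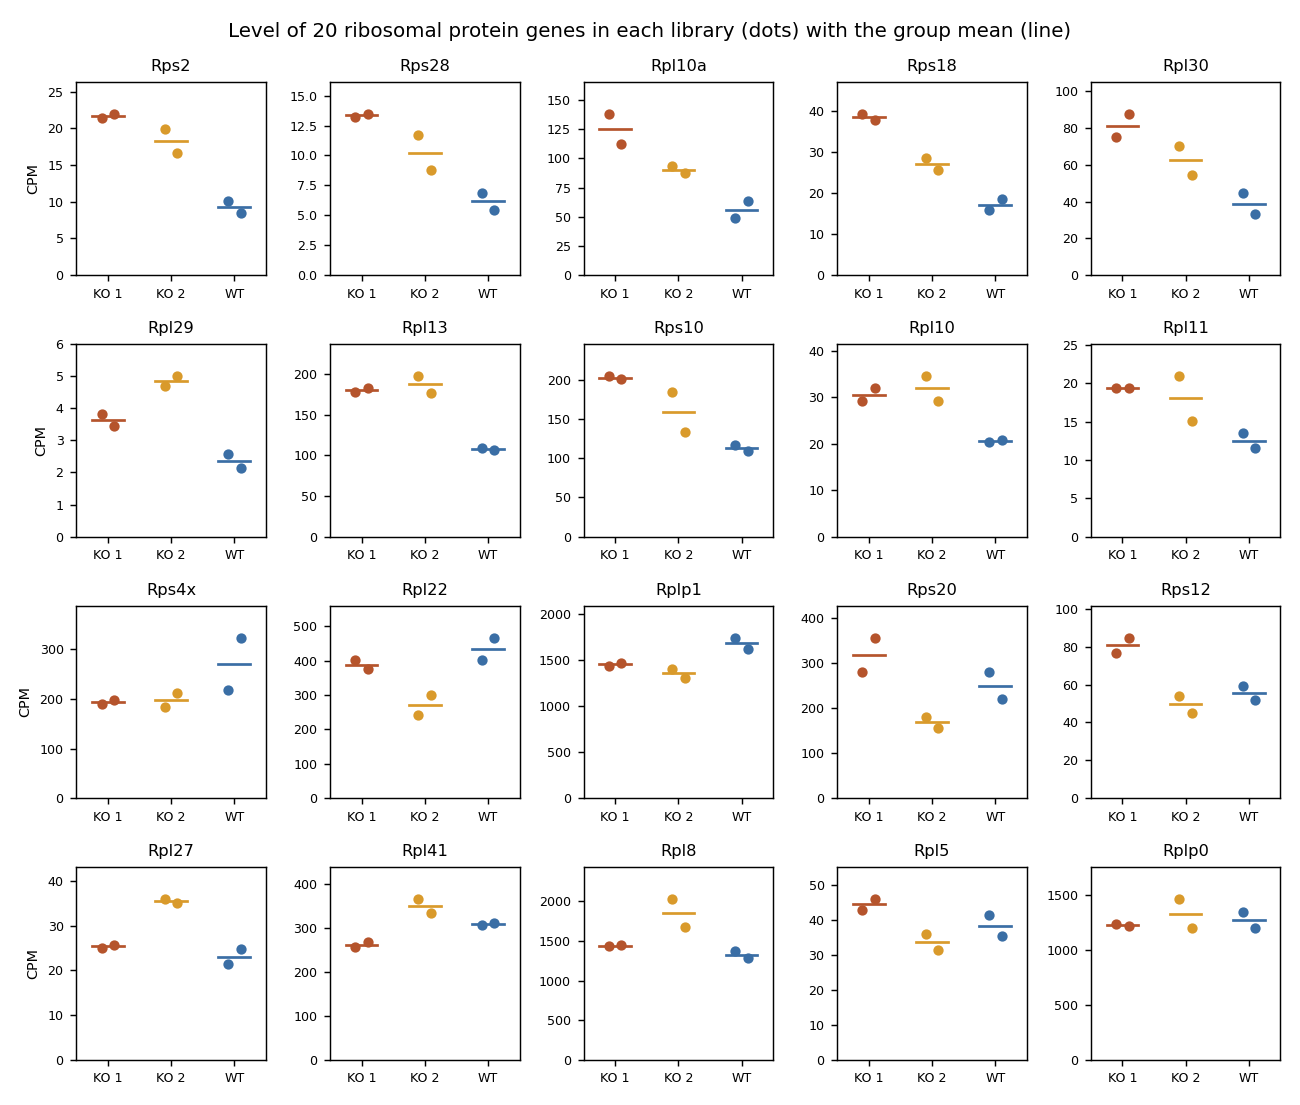
CPM (y axis, starting at 0, scaled for each gene) of 20 ribosomal protein genes in each library as dots, with the group mean as a line, for KO clone 1 (KO 1), KO clone 2 (KO 2) and WT from left to right. Rps2 lies at 16.6 to 21.9 CPM in the KO libraries and 8.44 to 10.1 CPM in WT, while Rplp0 overlaps across the groups.

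By position in the ribosome, no region listed here had all its genes called in the same direction for the mean of both clones. Of the 4 P stalk genes, whose proteins recruit and activate the translation GTPases, Rpl12 was higher and Rplp1 lower for the mean of both clones. Rplp0 had 1233 and 1218 CPM in KO clone 1, 1459 and 1196 CPM in KO clone 2, and 1343 and 1194 CPM in WT, with overlapping groups (log2 fold change 0.01, adjusted p = 0.957). Rplp2 likewise overlapped, with 275 and 301 CPM in KO clone 1, 305 and 297 CPM in KO clone 2, and 321 and 271 CPM in WT (−0.01, adjusted p = 0.958). Rplp1, which works as a dimer with Rplp2, had 1438 and 1475 CPM in KO clone 1, 1403 and 1309 CPM in KO clone 2, and 1745 and 1622 CPM in WT. Both clones lay below WT by a mean of −0.26 (adjusted p = 0.0316). That call did not hold without WT replicate 1 (−0.20, adjusted p = 0.165), either KO clone 1 replicate (0.123 and 0.113) or KO clone 2 replicate 2 (0.0556). Rpl12, at the base of the stalk, had 107 and 106 CPM in KO clone 1, 103 and 92.9 CPM in KO clone 2, and 62.7 and 75.3 CPM in WT, with all KO libraries higher (0.56, adjusted p = 0.000384).

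Of the genes whose proteins carry 5S rRNA to Mdm2, Rpl11 had 19.4 and 19.4 CPM in KO clone 1, 20.9 and 15.1 CPM in KO clone 2, and 13.5 and 11.6 CPM in WT. Its log2 fold changes were 0.64 in KO clone 1 (adjusted p = 0.00485) and 0.53 in KO clone 2 (adjusted p = 0.0162), where the call was lost without WT replicate 2 (0.1) and without KO clone 2 replicate 1 (0.223). Its partner Rpl5 had 43.0 and 45.9 CPM in KO clone 1, 35.9 and 31.4 CPM in KO clone 2, and 41.3 and 35.5 CPM in WT, and was called against WT in neither clone (0.22, adjusted p = 0.176; −0.19, adjusted p = 0.248). Rpl5 depended on the processing: it was called higher in KO clone 1 with unstranded counts (0.57, adjusted p = 0.0103), with chromosome shifts removed (0.40, adjusted p = 0.0173) and without WT replicate 1 (0.33, adjusted p = 0.0498), and for the mean with unstranded counts (0.49, adjusted p = 0.0115). Among all 10 genes listed as encoding Mdm2-binding ribosomal proteins, 2 were higher and 1 lower for the mean of both clones. The 18 genes mutated in Diamond-Blackfan anaemia, a failure of red cell production, had 6 higher and 1 lower. Over all tested genes 26.6% were higher and 29.4% lower, so the higher counts of both lists are near the background.

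Of the 6 genes of the intersubunit face and peptidyl transferase region 3 were higher and 1 lower. The lower one, Rpl23, which also binds Mdm2, had 108 and 118 CPM in KO clone 1, 99.8 and 92.1 CPM in KO clone 2, and 156 and 112 CPM in WT, where KO clone 1 overlapped WT. Its mean change of −0.36 (adjusted p = 0.0184) was −0.10 (adjusted p = 0.488) without WT replicate 1 and −0.34 (adjusted p = 0.0769) without KO clone 2 replicate 2. Rpl10, which joins the large subunit last and is needed for its release to translation, had 29.1 and 31.9 CPM in KO clone 1, 34.5 and 29.2 CPM in KO clone 2, and 20.4 and 20.7 CPM in WT. All KO libraries were higher, with log2 fold changes of 0.57 (adjusted p = 0.00223) and 0.63 (adjusted p = 0.000953). Rpl3, beside the peptidyl transferase centre, had 51.8 and 49.5 CPM in KO clone 1, 60.7 and 49.0 CPM in KO clone 2, and 46.5 and 44.7 CPM in WT, which was not called (0.21, adjusted p = 0.126, and 0.28, adjusted p = 0.0461, without KO clone 2 replicate 2). Around the exit of the nascent peptide tunnel 0 of 8 genes were higher and 1, Rpl22, was lower. At the mRNA entry and decoding site 2 of 4 genes were higher and 0 lower, and in the head and beak 2 of 11 were higher and 0 lower. Of 6 platform genes 3 were higher and 1 lower. The lower platform gene was Rps3a1 (log2 fold change −0.29, adjusted p = 0.0387), which lies outside the symbol rule because its name ends in a digit after a letter. Over all tested genes 26.6% were higher and 29.4% lower for the mean of both clones. Whether any region, each of few genes, departed from these shares was not tested.

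Rps6, the substrate of the S6 kinases that report mTORC1 activity, had 7.05 and 7.28 CPM in KO clone 1, 7.0 and 6.34 CPM in KO clone 2, and 5.22 and 6.08 CPM in WT. All KO libraries were slightly higher, and the change was not called (0.27, adjusted p = 0.168). Rps27a, made as a fusion with ubiquitin, had 16.2 and 18.6 CPM in KO clone 1, 18.1 and 16.7 CPM in KO clone 2, and 16.0 and 12.7 CPM in WT, and was not called either (0.30, adjusted p = 0.0803). It was called higher for the mean without WT replicate 1 (0.46, adjusted p = 0.0167), without a filter on low counts (0.37, adjusted p = 0.033) and with chromosome shifts removed (0.47, adjusted p = 0.0103).

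The clones also differed from each other. In KO clone 2 against KO clone 1, 3 of the 77 genes were higher and 7 lower (13.0% called), against 23.5% called over all genes (12.1% higher, 11.4% lower). The number higher was 8 without either WT library and 0 without either KO clone 1 library or without KO clone 2 replicate 1. The number lower was 3 without KO clone 1 replicate 1 or KO clone 2 replicate 1 and 4 without KO clone 1 replicate 2 or KO clone 2 replicate 2. The calls of Rps20 and Rps12 held in each of these fits, and the other 8 were lost in at least 1. Rps20 (ENSMUSG00000028234, chr4:3831334-3835665, − strand), of the head, had 180 and 157 CPM in KO clone 2, 279 and 357 CPM in KO clone 1, and 280 and 221 CPM in WT. KO clone 2 was below every other library, and the difference from KO clone 1 was −0.92 ± 0.144 (adjusted p = 0.000447). Against WT it was lower in KO clone 2 (−0.57, adjusted p = 0.00347, and 0.0667 without KO clone 2 replicate 2) and not called in KO clone 1 (0.35, adjusted p = 0.054). In KO clone 1 it was called higher without WT replicate 1 (0.53, adjusted p = 0.00596), without KO clone 1 replicate 1 (0.51, adjusted p = 0.0152), without a filter on low counts (0.43, adjusted p = 0.00384) and with the replicate block (adjusted p = 0.0455). Rps12 (ENSMUSG00000061983, chr10:23785183-23787275, − strand), a beak protein that in Drosophila takes part in the elimination of cells short of ribosomal proteins, had 54.0 and 45.0 CPM in KO clone 2, 76.5 and 84.8 CPM in KO clone 1, and 59.5 and 51.9 CPM in WT. Here KO clone 1 stood apart, above WT by 0.54 (adjusted p = 0.00264) and above KO clone 2, with a difference of −0.71 for KO clone 2 against KO clone 1 (adjusted p = 0.00132).

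Rpl27, of the large subunit, went the other way, with 35.9 and 35.0 CPM in KO clone 2, 25.1 and 25.8 CPM in KO clone 1, and 21.5 and 24.7 CPM in WT. KO clone 2 was highest, with a difference from KO clone 1 of 0.48 (adjusted p = 0.0119), lost when any of the KO libraries was left out (0.0613 to 0.121). Rpl8, of the peptidyl transferase region, had 2024 and 1677 CPM in KO clone 2, 1430 and 1450 CPM in KO clone 1, and 1367 and 1282 CPM in WT. It was higher in KO clone 2 than in KO clone 1 by 0.36 (adjusted p = 0.0412, and 0.232, 0.220 and 0.287 without KO clone 1 replicate 1, KO clone 1 replicate 2 and KO clone 2 replicate 1). Rpl41, which encodes a very short peptide, had 365 and 334 CPM in KO clone 2, 256 and 267 CPM in KO clone 1, and 306 and 310 CPM in WT. WT lay between the clones, which differed by 0.42 (adjusted p = 0.0133, and 0.103 to 0.169 without either KO clone 1 library or KO clone 2 replicate 1), while neither clone was called against WT. With chromosome shifts removed Rpl41 was higher than WT in KO clone 2 (0.56, adjusted p = 0.000506) and stood at 0.19 in KO clone 1 (adjusted p = 0.17), and with upper-quartile scaling it was lower in KO clone 1 (−0.29, adjusted p = 0.0376).

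Genes of the family differ widely in how much of their sequence is their own. For each gene, the share of 50-base windows of the transcript with the longest coding sequence that occur in no other gene's GENCODE transcripts ran from 1.35% (Rps27) to 100%, with 22 of the 81 genes under 25% and 40 under 50%. Per kilobase of exon, levels in the 77 tested genes ran from 1.64 to 2918 CPM in KO clone 1 (median 33.2), 1.35 to 2717 CPM in KO clone 2 (median 33.9) and 1.12 to 3373 CPM in WT (median 27.5). Rpl24 was lowest and Rplp1 highest in each group. Over the 77 genes Spearman's rho between the unique share and the WT level per kilobase was 0.52 (Pearson's r 0.51), a description over genes that share libraries. Levels of genes with few unique windows leave out reads from shared windows, so the order of levels between genes is that of uniquely placed reads.

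The changes also varied with the unique share. Among genes with under 25% unique windows 12 of 21 were higher and 0 lower for the mean of both clones (median log2 fold change 0.42). With 25% to under 50% unique windows 8 of 18 were higher and 2 lower (median 0.36), and with 50% to under 75%, 5 of 27 were higher and 1 lower (median 0.05). With 75% or more, 1 of 11 was higher, namely Rpl8, and 3 were lower, namely Rpl22, Rps15a and Rps24 (median −0.13). With upper-quartile scaling the count in this last class was 0 higher and 4 lower (median −0.20), and the median of the class from 50% to under 75% was −0.02. Spearman's rho between the unique share and the log2 fold change was −0.48 over the 77 genes. The median unique share was 34.2% in genes called higher, 73.1% in genes called lower and 58.4% in genes not called. The level moved with the change as well: of genes averaging 100 CPM or more 6 of 34 were higher and 6 lower, at 10 to under 100 CPM 15 of 29 were higher and 0 lower, and under 10 CPM 5 of 14 were higher and 0 lower. Of the 10 most abundant genes, which held 60.3% to 62.9% of the family's reads, 2 were higher and 1 lower. Over all tested genes 26.6% were higher and 29.4% lower for the mean of both clones, and these shares were not split by level or unique share. Whether calls over all genes vary with level in the same way was not tested. The part of shared sequence in the higher calls was not tested.

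**Figure D4:**
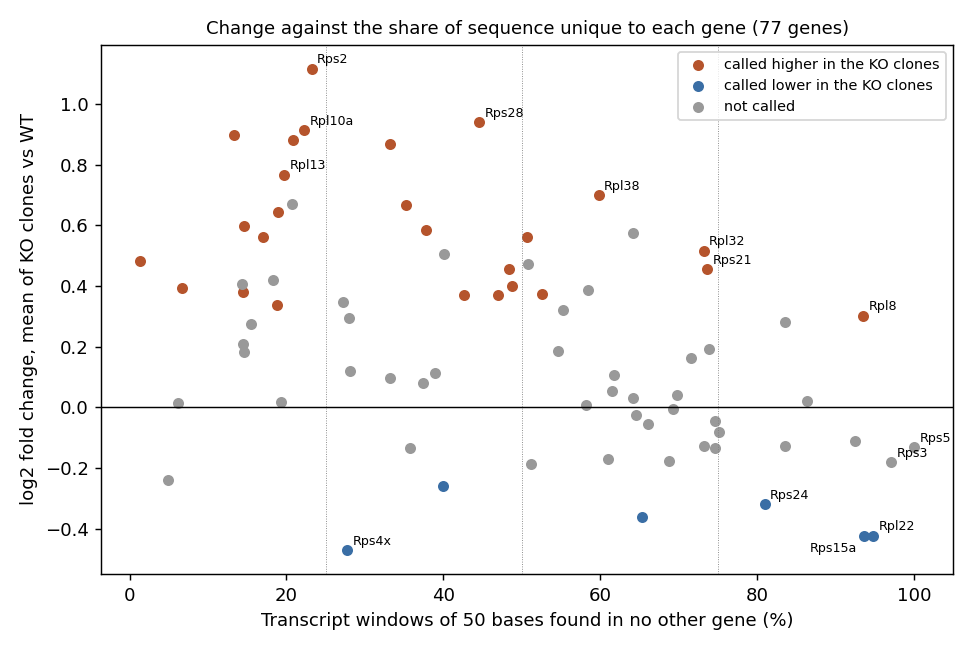
log2 fold change of the mean of both KO clones against WT (y axis) against the share of 50-base transcript windows found in no other gene (x axis, %) for the 77 tested genes, coloured by call. Most genes called higher, such as Rps2 at 1.12, lie left of 50%, and Rpl22 and Rps15a, both at −0.42, lie right of 90%.

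Uniquely placed reads of the named processed pseudogenes were few beside those of most parent genes. The files list 288 such pseudogenes of 58 of the genes, of which 234 had a read, and together they held 1499 to 3931 reads per library. Their reads made up a median of 0.819% of the sum of parent and pseudogenes. They passed 10% of the sum for 7 genes and 50% for 1, Rps6, at 85.1%. Adding them to the parents left the calls of the named genes against WT on the same side of the threshold, apart from Rps6 (given at the end), Rpl36a, whose calls were lost (adjusted p = 0.108 in KO clone 2 and 0.0745 for the mean), and Rpl3, which was called in KO clone 2 (0.30, adjusted p = 0.0497). Reads that fit a parent and a pseudogene alike were assigned to neither. Pseudogenes under other names were not added. Rpl7a shared 50-base windows with 120 pseudogenes against 13 named ones, while Rpl31 shared them with 25 against 24.

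Position on the chromosome also went with the change. All 6 tested genes on chromosome 17 (Rps2, Rps10, Rps18, Rps28, Rpl10a and Rpl36) were called higher in both clones, with a median log2 fold change of 1.14 in KO clone 1 and 0.66 in KO clone 2. All 655 tested genes of chromosome 17 had medians of 0.55 in KO clone 1 and 0.17 in KO clone 2. The median gene of that chromosome was thus higher in both clones, and the 6 genes were tested again with each chromosome's median shift removed. Rps2 then had a mean change of 0.77, Rps28 of 0.59, Rpl10a of 0.56 and Rps18 of 0.55, all still called, while Rps10 had 0.31 (adjusted p = 0.0418 for the mean, 0.0847 in KO clone 1 and 0.0667 in KO clone 2) and Rpl36 had 0.30 (adjusted p = 0.124). The differences between the clones for Rps18 and Rpl10a, −0.51 and −0.47, were −0.14 (adjusted p = 0.424) and −0.10 (adjusted p = 0.602) after this step. Rpl36, with 16.1 and 15.1 CPM in KO clone 1, 10.4 and 13.8 CPM in KO clone 2, and 7.78 and 9.67 CPM in WT, also lost its KO clone 2 call without WT replicate 1 (0.147) or KO clone 2 replicate 2 (0.394). Off chromosome 17, 20 of 71 genes were higher and 6 lower for the mean of both clones (median 0.18). The background over all tested genes was 26.6% higher and 29.4% lower. In both clones 12 of the 71 were higher (16.9%) and 1 lower (1.41%), against 17.9% and 20% over all genes. The share of the 655 genes of chromosome 17 that were called was not computed.

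Over all 77 genes, removing the chromosome shifts kept 24 of the 32 calls for the mean of both clones, lost 8 and made 8 others. Lost were the higher calls of Rps21, Rps23, Rpl7a and Rpl36 and the lower calls of Rps4x, Rps24, Rpl23 and Rplp1. Rpl22 (−0.43, adjusted p = 0.00315) and Rps15a (−0.37, adjusted p = 0.0146) remained lower. Rpl12 stood at 0.30 for the mean (adjusted p = 0.0284) and lost its KO clone 2 call (0.22, adjusted p = 0.146). Rps12, on chromosome 10, whose median gene was lower by −0.40, stood at 0.96 in KO clone 1 (adjusted p = 1.56e-05) and 0.21 in KO clone 2 (adjusted p = 0.193), and was called higher for the mean (0.58, adjusted p = 0.000423). Between the clones 4 of the 10 calls were lost, those of Rps18, Rpl10a, Rpl22 (−0.24, adjusted p = 0.182) and Rpl8 (0.26, adjusted p = 0.144).

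**Figure D5:**
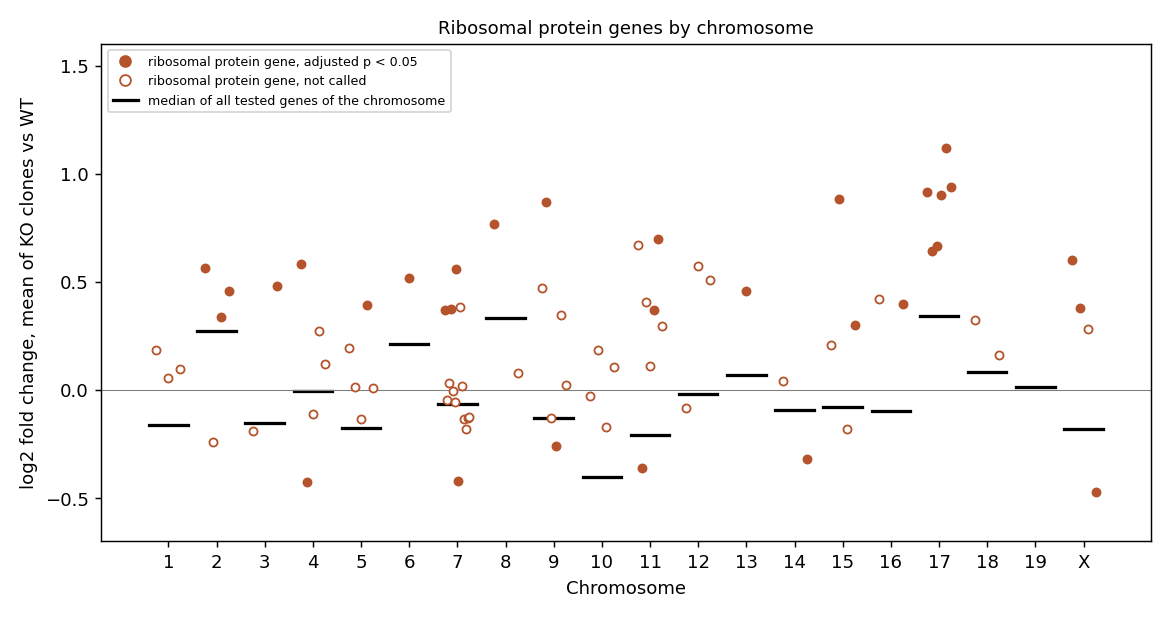
log2 fold change of the mean of both KO clones against WT (y axis) of each tested ribosomal protein gene by chromosome (x axis), filled where the adjusted p was under 0.05, with the median of all tested genes of the chromosome as a bar. The 6 genes on chromosome 17 lie between 0.64 and 1.12, above that chromosome's median of 0.34.

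Several of these genes have diverged copies that can replace them in certain tissues. Rpl10l and Rpl39l, made mainly in the testis, had 0 reads in all libraries, below the floor of 3 counts, which corresponds to 0.132 to 0.288 CPM. The muscle form Rpl3l had 1 read in KO clone 1 replicate 1 and 0 in the rest. Rps27rt had 2 and 2 reads in KO clone 1, 1 and 0 in KO clone 2 and 0 in WT. These 4 are the genes that were not tested. Rps27l, a p53 target in human cells, had 50.2 and 61.2 CPM in KO clone 1, 71.3 and 51.4 CPM in KO clone 2, and 76.0 and 40.3 CPM in WT, with the WT libraries farthest apart (0.02, adjusted p = 0.961, and 0.54, adjusted p = 0.0289, without WT replicate 1). Its parent Rps27 had 14.6 and 13.3 CPM in KO clone 1, 13.6 and 11.04 CPM in KO clone 2, and 11.4 and 7.73 CPM in WT, and its mean change of 0.48 (adjusted p = 0.0237) was lost without WT replicate 2 (0.20, adjusted p = 0.390) or KO clone 2 replicate 1 (0.101). Rpl36al had 7.05 and 6.87 CPM in KO clone 1, 9.65 and 6.86 CPM in KO clone 2, and 9.26 and 6.96 CPM in WT (−0.08, adjusted p = 0.722). Its relative Rpl36a, with 11.01 and 12.5 CPM in KO clone 1, 11.9 and 12.2 CPM in KO clone 2, and 9.85 and 8.55 CPM in WT, rose by 0.38 (adjusted p = 0.0344), which did not pass when any library but WT replicate 1 was left out (0.0526 to 0.224). Rpl39 was the least certain, with 136 and 161 CPM in KO clone 1, 218 and 88.2 CPM in KO clone 2, and 200 and 51.0 CPM in WT. The replicates of a group differed more than the groups, and the change was 0.28 ± 0.796 (SE; adjusted p = 0.798).

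Of the 45 genes not called for the mean of both clones, 29 had a 95% interval of the change that lay within 1.5-fold in either direction. The bounds of the 45 intervals ran from −2.16 to 2.72 on the log2 scale, with a median SE of 0.126.

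Some ribosomal protein genes and close relatives lie outside the symbol rule. Rpsa, a small subunit protein also known as the laminin receptor, had 107 and 99.8 CPM in KO clone 1, 102 and 99.6 CPM in KO clone 2, and 50.3 and 65.7 CPM in WT, a clear separation (0.81, adjusted p = 2.36e-05). Fau, made as a fusion with a ubiquitin-like protein, had 16.95 and 17.3 CPM in KO clone 1, 20.7 and 16.9 CPM in KO clone 2, and 11.8 and 12.6 CPM in WT (0.55, adjusted p = 0.00283). Rpl22l1, the relative of Rpl22, had 26.6 and 26.1 CPM in KO clone 1, 31.7 and 33.9 CPM in KO clone 2, and 17.4 and 19.3 CPM in WT, so it was higher in both clones (0.67, adjusted p = 0.000133) while Rpl22 was lower in KO clone 2. Rpl7l1, on chromosome 17, had 280 and 293 CPM in KO clone 1, 183 and 186 CPM in KO clone 2, and 132 and 130 CPM in WT (0.81, adjusted p = 3.57e-06). The scaffold protein Rack1, at 2347 and 2291 CPM in KO clone 1, 2744 and 2457 CPM in KO clone 2, and 2830 and 2859 CPM in WT, was lower in KO clone 1 (−0.29, adjusted p = 0.0423) and not called in KO clone 2 (−0.13, adjusted p = 0.36). The KO clone 1 call was lost without any one of the WT or KO clone 1 libraries (0.0838 to 0.274). The mean change of Rack1, −0.21 (adjusted p = 0.0787), was called with upper-quartile scaling (−0.28, adjusted p = 0.0219) and without KO clone 2 replicate 1 (−0.25, adjusted p = 0.0499).

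For the lists of related genes the background is that 26.6% of all tested genes were higher and 29.4% lower for the mean of both clones, and 17.9% higher in both clones. Of 24 translation factors and related genes with TOP mRNAs 2 were higher and 8 lower (median −0.08), the lower ones at a share near that background. The host gene of small nucleolar RNAs Snhg1 was higher (1.49, adjusted p = 1.07e-08), and the initiation factor Eif2a (−0.82, adjusted p = 7.3e-06), the nascent chain complex subunit Naca (−0.57, adjusted p = 0.000264) and the histone chaperone Nap1l1 (−0.59, adjusted p = 0.000443) were lower. Among 18 genes of mTORC1 and LARP1 control 5 were higher and 5 lower, near the background in both directions. Eif4ebp1, the repressor of cap-dependent translation that mTORC1 phosphorylates, had 410 and 432 CPM in KO clone 1, 539 and 454 CPM in KO clone 2, and 155 and 111 CPM in WT (1.79, adjusted p = 2.34e-08). The mTORC1 subunit Mlst8 was higher (0.78, adjusted p = 9.46e-05), and the S6 kinase Rps6kb1 (−0.75, adjusted p = 2.67e-05) and the mTOR inhibitor Deptor (−0.65, adjusted p = 0.000575) were lower.

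Of 28 dedicated chaperones of ribosomal proteins and late assembly factors 17 were higher and 3 lower (median 0.50), and 14 were higher in both clones, where the background is 26.6% higher, 29.4% lower and 17.9% higher in both clones. Eif6, which keeps new large subunits from joining small ones too early, had 432 and 414 CPM in KO clone 1, 675 and 641 CPM in KO clone 2, and 162 and 203 CPM in WT. Every KO library was more than 2-fold above both WT libraries (1.53, adjusted p = 1.55e-08). The small subunit assembly factors Bysl (1.34, adjusted p = 4.35e-08) and Nob1 (0.93, adjusted p = 1.35e-06) were higher too. So was Heatr3, which helps to import Rpl5 (0.94, adjusted p = 2.22e-06). The values given for these lists of related genes come from fits in which chromosome shifts were not removed. The part of such shifts in them was not tested.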

How the data were processed

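Per the labels' protocols, Trizol RNA of the 6 samples was freed of ribosomal RNA and sequenced on a HiSeq2500 from stranded libraries. Per the submitters' processing notes, FastQC and STAR 2.6.0c were run with GRCm38; the annotation used for counting is not given in the sources used here. The deposited values are raw counts of reads per gene with no normalization by the authors, in an unstranded, a forward and a reverse column. The reverse column was used, as it held 92.3% to 95.7% of the reads of both strands. Rows without a gene (reads unmapped, mapped to several places, outside genes or ambiguous) entered neither library sizes nor tests. GENCODE M21 named 54079 gene IDs, and 67 did not match.

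Genes were filtered with filterByExpr (13755 of the 26172 with a read were kept), scaled by TMM and tested with edgeR 4.0.16 (limma 3.58.1, R 4.3.3) by the quasi-likelihood test on all 6 libraries with 1 term per group, leaving 3 residual degrees of freedom. The fit's common biological coefficient of variation was 10.3%. The test for the mean of both clones was checked on simulated data in which a small set of genes changed alike in both clones. Data with as many changed genes as here, or with chromosome shifts, were not simulated. CPM use the scaled library sizes. P-values were adjusted by the Benjamini-Hochberg method over all tested genes. No library was a copy of its replicate: chi-square over genes, divided by its degrees of freedom, was 17.7 in KO clone 1, 25.0 in KO clone 2 and 78.8 in WT. A count floor of 3 and all intervals cover counting or replicate error only. Values in every library are given for the largest changes called in both clones, the strongest differences between the clones, members fixed by role or as diverged copies, and ribosomal protein genes outside the symbol rule, some of which are not reported here; others are given by counts, and Rps15a, Rps24, Rpl23 and Rpl12 are named outside this rule, with their values known. The members and lists were chosen with earlier results of these data known, so patterns those results show have no independent support here. Alternatives tried were other scalings, DESeq2 1.42.0, limma-voom, no filter, a 1.2-fold threshold, unstranded counts, pseudogene reads added, chromosome shifts removed, a replicate block, a fit of the compared groups alone, and leaving out each library. The replicate numbers did not pair the samples.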

Additional observations from a re-analysis of the deposited data

Results flagged for a closer look

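For 10 ribosomal protein genes the clones differed from each other past the threshold, in a direct test of KO clone 2 against KO clone 1. The differences (log2) were −0.92 for Rps20, −0.71 for Rps12, −0.52 for Rpl22, −0.51 for Rps18, −0.47 for Rpl31, −0.47 for Rpl10a and −0.40 for Rpl5, lower in KO clone 2, and 0.48 for Rpl27, 0.42 for Rpl41 and 0.36 for Rpl8, higher in KO clone 2. With chromosome shifts removed the difference of Rpl22 was −0.24 (adjusted p = 0.182), and those of Rps18, Rpl10a and Rpl8 were no longer called. Against WT, Rps20 stood at 0.35 in KO clone 1 (not called, adjusted p = 0.054) and −0.57 in KO clone 2 (adjusted p = 0.00347). With groups of 2, no library could be tested for standing apart from its group.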

How the results depend on the processing

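Replicate numbers were shared by the groups but did not pair the samples: same-numbered libraries deviated with correlations of −0.156 (KO clone 1 and WT), 0.082 (KO clone 2 and WT) and 0.005 (the clones). With the replicate block the counts were 23 higher and 2 lower in KO clone 1, 26 and 5 in KO clone 2, 28 and 5 for the mean, and 2 and 7 between the clones. Without a filter on low counts, the median of all genes for the mean moved to 0.093.

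Counts of called ribosomal protein genes that moved by more than 1.5 times were these. With a test of change over 1.2-fold, KO clone 1 had 14 higher and 0 lower, KO clone 2 had 15 and 3, the mean had 16 and 0, and KO clone 2 against KO clone 1 had 0 and 2. In KO clone 1 the number lower was 6 with upper-quartile scaling, 4 with DESeq2, 4 with limma-voom and 0 with chromosome shifts removed. That last step gave 3 lower in KO clone 2 and 2 for the mean. A fit of the compared groups alone gave 8 higher between the clones; it gives no value for the mean. Leaving out single libraries gave 1 to 7 lower in KO clone 1, 11 to 28 higher and 2 to 7 lower in KO clone 2, and 0 to 8 higher and 3 to 9 lower between the clones.

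The median change was 0.33 in KO clone 1 and 0.35 for the mean without a filter, 0.30 for the mean with chromosome shifts removed, 0.16 in KO clone 2 with upper-quartile scaling, 0.16 to 0.30 in KO clone 2 and −0.0761 to 0.0812 between the clones on leaving out single libraries. The family's share was 1.71% in KO clone 1 and 1.755% in WT with unstranded counts, and 1.71% and 1.73% with pseudogene reads added. Without mitochondrial genes and the 10 most abundant genes of any library it was 2.20% in KO clone 1, 2.18% in KO clone 2 and 2.399% in WT. With pseudogene reads added Rps6 was called higher in KO clone 1 (0.58, adjusted p = 0.000597). It reversed to −2.73 in KO clone 2 and −1.07 for the mean, which joins opposite changes of the clones. In KO clone 1 and WT the added reads are nearly all those of Rps6-ps1. Rpl41 reversed to 0.37 for the mean with chromosome shifts removed. Of the values of single genes 1810 stayed on the same side of the threshold, 48 crossed into it and 120 dropped out. A further 3 were called in the opposite direction. Direction was compared only where a value was called before or after the change of setting, so uncalled values could change sign. Rpl39, not called, ran from −0.40 to 1.57 for the mean on leaving out single libraries. With 2 libraries per group and WT the least deep, small changes could not be resolved, and reads from shared sequence limit the genes with few unique windows.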

Other observations

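A processed copy of Rps6, named Rps6-ps1 (ENSMUSG00000063875, chr15:76337616-76338362 on GRCm38, + strand), was singled out after its values were seen. It had 1581 and 1439 reads in KO clone 1, 8 and 10 reads in KO clone 2, and 445 and 736 reads in WT. As levels these were 69.6 and 64.6 CPM in KO clone 1, 0.471 and 0.431 CPM in KO clone 2, and 43.8 and 43.4 CPM in WT. The copy was higher in KO clone 1 (log2 fold change 0.62, adjusted p = 0.000381) and nearly without reads in KO clone 2 (−6.58 ± 0.202, adjusted p = 1.40e-12), and the clones differed by −7.21 (adjusted p = 1.18e-12). The parent gene Rps6 had 160 and 162 reads in KO clone 1, 119 and 147 in KO clone 2, and 53 and 103 in WT, so in KO clone 1 and WT the copy held more uniquely placed reads than its parent. Only 15.4% of the 50-base windows of Rps6 occur in no other gene, and reads from the shared ones were assigned to no gene. The counts thus do not show which of the 2 is expressed more.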
